A study of Mus musculus with 30 samples.

Results

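Transcripts of 9 circadian clock genes (Hlf, Dbp, Tef, Per1, Per2, Per3, Nr1d1, Nr1d2 and Arntl) were followed in RNA from mouse sciatic nerve, before and after a crush. Members were taken by gene symbol from 4 count tables: input, nucleolin in injured nerve, nucleolin in naive nerve, and PTBP1. The 9 genes were chosen with earlier results of these data known, so the shares of all transcripts set beside them only describe. The 9 genes had 17 listed transcripts among 20423 transcripts of 14457 named genes. Of these, 10 transcripts of 8 genes stood in all 4 tables. The material was axoplasm, the soluble fraction of nerve ground in buffer and cleared by centrifugation, from nerves taken 7 days after crush (injured) or left uncrushed (naive). It was sequenced as input, after immunoprecipitation (IP) with an antibody against nucleolin or PTBP1, which are both RNA-binding proteins, and after the same IP with the antibody pre-incubated with its blocking peptide (blocked IP). These are 10 groups of 3 libraries, with 10 nerves pooled in each sample and 3 biological repeats that the submitters describe as independent. The sources used here give no mouse strain, sex, age or hour of collection. These genes cycle over the day, and the part of the hour of collection in the differences between injured and naive nerve was not tested.

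The clock is a feedback loop of transcription. BMAL1 (the product of Arntl) and CLOCK bind E-box motifs and activate the Per and Cry genes, the Nr1d genes and Dbp, and PER and CRY proteins then repress BMAL1 and CLOCK. The Nr1d proteins (REV-ERB alpha and beta) repress Arntl through a second motif, the ROR element. DBP, TEF and HLF are the PAR bZIP factors, which pass the rhythm to output genes through the D-box, where NFIL3 acts as a repressor. The loop runs in most tissues, and in mouse liver Dbp and Nr1d1 are among the transcripts with the widest daily swing.

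The D-box and the E-box are the letters through which these genes act on each other, so 2 stretches that hold them are shown. They come from the RefSeq promoter windows (250 bases before to 50 after a gene start, GRCm38.p6), which matched 8 of the 9 genes with 11 windows. Both strands were searched for the E-box CACGTG, the D-box TTATGTAA or TTACGTAA, and the ROR element. Capitals mark the motif. The first stretch lies at chr4:151044796-151044890 on the minus strand, upstream of Per3-201. The second lies at chr15:81811256-81811301 on the plus strand, upstream of the start of Tef-201 and inside an intron of Tef-202. Neither overlaps an exon of the GENCODE M21 annotation.
Per3 upstream: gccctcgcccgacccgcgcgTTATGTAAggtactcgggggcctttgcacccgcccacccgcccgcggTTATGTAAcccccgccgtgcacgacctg
Tef upstream: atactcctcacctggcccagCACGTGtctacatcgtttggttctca
Among all 32851 windows, 1.06% held a D-box and 0.0244% held at least 2, as Per3 did. An E-box stood in 7.15% of all windows and in 3 of the 11 clock windows, which belonged to Tef and Per1. A ROR element stood in 0.435% of all windows and in 1 of the 11, that of Arntl. None of these letters were found in the windows of Hlf, Dbp, Nr1d1 and Nr1d2, which says nothing of sites elsewhere in those genes.

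Each library held 7536033 to 22919174 counts in its table. Levels are given as CPM, counts scaled to library size, on a scale shared by all 30 libraries (TMM scaling over the transcripts of all 4 tables). Injured input 1 was the shallowest library and its TMM factor was 0.508, while the other 5 inputs had factors of 0.922 to 1.15. Its results are therefore given with and without it. In the PTBP1 blocked libraries 15.8% to 30.4% of the listed transcripts were at 0, against 0% to 7.28% in the inputs. The input table holds only transcripts with at least 5 counts in injured inputs 2 and 3, so a clock transcript that nearly vanished after crush would not be in it.

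The label of the tissue was checked against marker genes in the input. Of 10 markers of myelinating Schwann cells, 7 were tested, and 6 were lower and 1 higher after injury. The listed markers summed to 5034.5 to 7889 CPM in injured inputs and 27576 to 54643 CPM in naive inputs. Axon markers (6 tested, 1 higher, 2 lower) summed to 161 to 204 CPM in injured inputs and 740 to 951 CPM in naive inputs. Macrophage markers (8 tested, 6 higher, 0 lower) summed to 7322 to 9729 CPM in injured inputs and 1027 to 2084 CPM in naive inputs. Adipocyte markers (5 tested, all 5 lower) summed to 477 to 557 CPM in injured inputs and 3640 to 4641 CPM in naive inputs. Muscle markers (5 tested, 4 lower) summed to 26.9 to 119.6 CPM in injured inputs and 688 to 1084 CPM in naive inputs. Fibroblast and perineurial markers (6 tested, 4 lower) summed to 15224 to 18306 CPM in injured inputs and 20930 to 24365 CPM in naive inputs. Red cell markers (4 tested, all 4 lower) and endothelial markers (6 tested, 1 higher, 1 lower) were measured as well, and no tested marker of any list was at 0 throughout a group. In bulk RNA, fewer cells of a type and less RNA per cell cannot be told apart, and the part of these shifts in the clock results was not tested.

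In naive input the nuclear receptors were the most abundant clock transcripts per length. Nr1d2-201 had 61.0 CPM per kilobase, Nr1d1-201 had 44.5, Hlf-201 had 18.1, Tef-203 had 16.3, Arntl-201 had 11.4 and Tef-202 had 10.3. Below them stood Per3-201 with 5.15, Dbp-201 with 4.91, Per2-201 with 3.035 and Per3-205 with 2.38. In injured input the order began with Nr1d2-201 at 43.2 CPM per kilobase, Tef-202 at 13.8, Arntl-201 at 13.5 and Nr1d1-201 at 13.05. Hlf-201 stood at 2.33 there. In the naive order, the libraries of neighbours overlapped except between Nr1d1-201 and Hlf-201 and between Tef-202 and Per3-201.

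After crush, 5 of the 10 clock transcripts tested in the input were lower and 0 were higher. They were Hlf-201, Dbp-201, Tef-203, Per3-205 and Nr1d1-201, and they belong to 5 of the 8 genes measured. Tef-203 and Per3-205 are retained-intron forms, less abundant than Tef-202 and Per3-201, which were not called. By the most abundant transcript of each gene, the unit of the further lists below, 3 of 8 genes were lower and 0 higher. The median log2 fold change was then -0.70. Transcripts called lower made up 13.4% of all 14095 tested, and calls in either direction 27.8%. The median log2 fold change (injured over naive) of the 10 was -1.22, beside 0.0017 for all transcripts. All injured libraries lay below all naive ones in 4 of the 10 clock transcripts, and in 21.1% of all transcripts. The fold change was below 0 in 8 of the 10, and in 49.9% of all transcripts. An unadjusted p under 0.05 was reached by 6 of the 10, and by 38.8% of all transcripts. Over all transcripts 2037 (14.5%) were called higher and 1887 lower. Scaling by library totals alone gave 846 higher and 1481 lower, moved the median of all transcripts by -0.26 and left the same number of clock calls, 5.

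**Figure D1:**
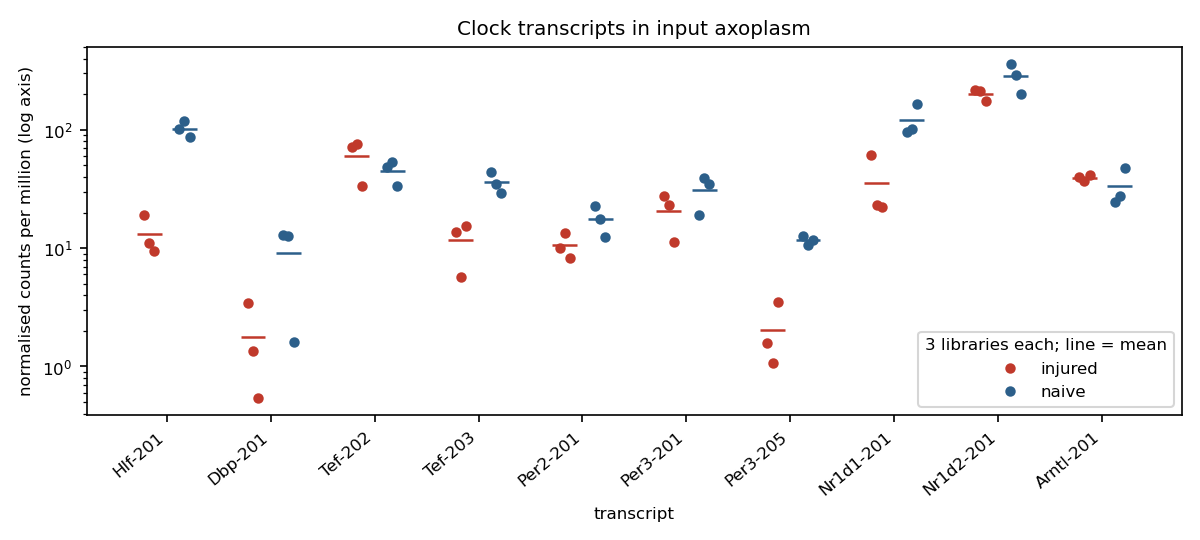
CPM (log axis) of the 10 clock transcripts tested in input axoplasm, injured to the left of naive, with 1 point per library and a line at the mean of 3. Hlf-201, Tef-203, Per3-205 and Nr1d1-201 show no overlap between injured and naive libraries.

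Hlf, the hepatic leukemia factor of the PAR bZIP family, showed the largest fall. Hlf-201 (ENSMUST00000004051, GRCm38 chr11:90336536-90390895, minus strand, 4 exons, protein coding) had 19.0, 11.0 and 9.54 CPM in injured inputs 1 to 3, against 102, 118 and 86.9 CPM in naive inputs. All injured libraries lay far below all naive ones. The log2 fold change was -3.02 (SE 0.33, adjusted p = 4.67e-05, edgeR). Only 1.4% of all tested transcripts had a lower fold change. The call held under all 11 alternatives run for it, with adjusted p from 3.61e-17 to 0.000824.

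Dbp, the D-site binding protein of the same family, was scarce and variable. Dbp-201 (ENSMUST00000080885, chr7:45705088-45710203, plus strand, 4 exons, protein coding) had 3.43, 1.35 and 0.538 CPM in injured inputs, against 12.9, 12.6 and 1.61 CPM in naive inputs. Naive input 3 lay inside the injured range, so the groups overlap. The log2 fold change of -2.48 (SE 0.85) passed the threshold narrowly, at an adjusted p of 0.0464. It was no longer called without injured input 2 (adjusted p = 0.143), injured input 3 (0.132), naive input 1 (0.109) or naive input 2 (0.154). An exon of Dbp-201 overlaps one of Sphk2 on the opposite strand, and with the use of strand not given in the sources used here their reads cannot be told apart. Sphk2 itself had 0.874 to 2.25 CPM in injured inputs and 0.944 to 2.65 CPM in naive inputs (log2 fold change -0.29, adjusted p = 0.805).

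Tef, thyrotroph embryonic factor, gave different readings for its transcripts. The full-length form Tef-202 (ENSMUST00000109553, chr15:81802421-81826863, plus strand, 4 exons, protein coding) had 72.2, 76.5 and 33.3 CPM in injured inputs, against 48.1, 53.8 and 33.8 CPM in naive inputs. Those groups overlap, and the log2 fold change of 0.40 (SE 0.34) did not pass the test (adjusted p = 0.421). The retained-intron form Tef-203 (ENSMUST00000164673, chr15:81802737-81817012, 2 exons) had 13.7, 5.75 and 15.5 CPM in injured inputs, against 44.0, 35.2 and 29.2 CPM in naive inputs. Here every injured library was below every naive one, with a log2 fold change of -1.67 and an adjusted p of 0.00784. Summed over its listed transcripts, Tef did not change at the threshold (log2 fold change -0.17, adjusted p = 0.665), so the Tef-203 call is one of a transcript and not of the gene. The retained-intron transcript Tef-207 had 0.538 to 1.58 CPM in injured inputs and 0.148 to 0.312 CPM in naive inputs and was too scarce to be tested.

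**Figure D2:**
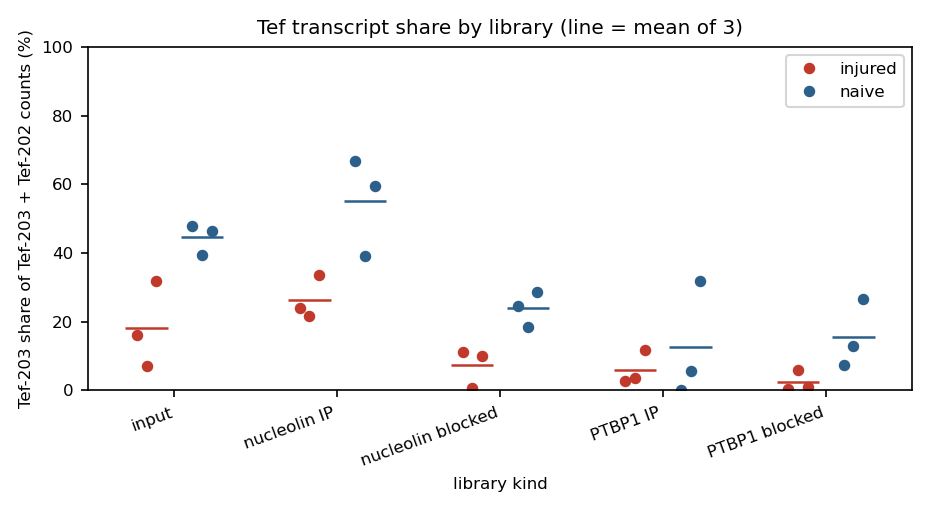
Share of Tef-203 in the summed counts of Tef-203 and Tef-202 (percent) for each library, injured to the left of naive in the 5 library kinds, with a line at the mean of 3. The injured libraries lie below the naive ones in every kind but the PTBP1 IP.

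The share of Tef-203 in the counts of Tef-203 and Tef-202 sets both forms side by side within a library. Tef-203 lies within the span of Tef-202, and Per3-205 within that of Per3-201. The sources used here name no counting tool, so how any shared reads were divided between forms is not known. This measure was chosen after the values were seen. It was 15.95%, 6.995% and 31.72% in injured inputs, against 47.79%, 39.51% and 46.41% in naive inputs. An exact two-sided permutation test of the log ratio gave p = 0.1, the smallest that 3 libraries against 3 allow. In nucleolin IPs the share was 23.95%, 21.52% and 33.47% in injured libraries and 66.81%, 39.14% and 59.6% in naive libraries. In nucleolin blocked IPs and in PTBP1 blocked IPs the injured libraries were again all below the naive ones. In PTBP1 IPs the groups overlapped, with 2.613%, 3.578% and 11.68% in injured libraries and 0%, 5.562% and 31.87% in naive libraries. The mean log2 ratio was 1.08 (injured minus naive, permutation p = 0.9). Naive PTBP1 IP 1 had 0 counts of Tef-203, so its ratio is set by the 0.5 added to each count. The sign of that mean is therefore not read as a rise of the share. The share of Per3-205 in the counts of Per3-205 and Per3-201 did not separate. It was 5.405%, 4.444% and 23.53% in injured inputs, against 39.81%, 21.59% and 25.2% in naive inputs (permutation p = 0.2). In PTBP1 IPs and blocked IPs its groups overlapped too (permutation p = 0.9 and 0.2).

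The Per genes encode the repressors of the loop. Per2-201 (ENSMUST00000069620, chr1:91415982-91459324, minus strand, 23 exons) had 10.0, 13.4 and 8.33 CPM in injured inputs, against 22.9, 17.7 and 12.5 CPM in naive inputs. Its log2 fold change was -0.76 (adjusted p = 0.172), and the highest injured library stood just above the lowest naive one. Per3-201, the protein-coding form of Per3 (ENSMUST00000103204, chr4:151003652-151044665, minus strand, 21 exons), had 27.7, 23.2 and 11.4 CPM in injured inputs, against 19.1, 38.9 and 34.7 CPM in naive inputs (log2 fold change -0.64, adjusted p = 0.288). The groups overlap, and neither Per2-201 nor Per3-201 was called under any of 11 alternatives. The retained-intron form Per3-205 (ENSMUST00000138584, chr4:151011437-151031497, 9 exons) had 1.58, 1.08 and 3.49 CPM in injured inputs, against 12.6, 10.7 and 11.7 CPM in naive inputs. No injured library reached the lowest naive one, and the log2 fold change was -2.51 (adjusted p = 0.00493). The sum over the listed Per3 transcripts was also called lower, by a smaller step (log2 fold change -0.93, adjusted p = 0.0493). The D-boxes printed above lie upstream of Per3-201, the form that was not called, and their part in these values was not tested. Per1-202 was listed only in the naive nucleolin table, with 9, 13 and 6 counts in the IPs and 0, 11 and 16 counts in the blocked IPs. It was in none of the fits across both conditions, and in the fit of the 6 naive nucleolin libraries alone its log2 fold change of IP over blocked was 0.74 (edgeR adjusted p = 0.9135).

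The nuclear receptor genes Nr1d1 and Nr1d2 moved by different amounts. Nr1d1-201 (ENSMUST00000064941, chr11:98767932-98775333, minus strand, 8 exons, protein coding) had 60.9, 23.3 and 22.3 CPM in injured inputs, against 96.5, 102 and 165 CPM in naive inputs. The highest injured library was still below the lowest naive one. The log2 fold change was -1.83 (adjusted p = 0.00581) and it was called under all 11 alternatives, with adjusted p from 0.000133 to 0.0294. Nr1d1 shares exon sequence with Thra, a thyroid hormone receptor gene on the opposite strand. Of the 3 Thra transcripts listed, 1 was also called lower (log2 fold change -1.01, adjusted p = 0.0411) and the others had -0.52 (adjusted p = 0.149) and -1.79 (adjusted p = 0.053), so a shared part of the reads cannot be told apart.

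Nr1d2-201 (ENSMUST00000090543, chr14:18204054-18239127, minus strand, 8 exons), for REV-ERB beta, had 217, 213 and 175 CPM in injured inputs, against 362, 292 and 199 CPM in naive inputs. The groups overlap at naive input 3. Its log2 fold change of -0.52 did not pass (adjusted p = 0.127), and it did without that library (adjusted p = 0.049). Arntl-201 (ENSMUST00000047321, chr7:113207465-113314126, plus strand, 20 exons), the gene that Nr1d proteins repress, had 39.8, 36.9 and 41.3 CPM in injured inputs, against 24.6, 27.7 and 47.5 CPM in naive inputs. Its log2 fold change was 0.18 (adjusted p = 0.727). The injured libraries were close together and lay within the naive range.

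Leaving out injured input 1, the library with the low scaling factor, left the same count of 5 clock transcripts lower and 0 higher. Leaving out any 1 of the 6 inputs gave 4 to 6. Hlf-201, Tef-203, Per3-205 and Nr1d1-201 were called lower in each of those 6 fits.

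The rest of the clock was read from lists of 18 further loop genes and 10 clock-controlled genes, each gene by its most abundant listed transcript. Of the 18, 12 were tested in input, with 4 higher and 1 lower, where 14.5% of all transcripts were called higher and 13.4% lower. Their median log2 fold change was 0.17, beside 0.0017 for all transcripts. The risers were repressors and a kinase. Bhlhe40 (DEC1), a repressor at E-boxes, had 388, 589.8 and 374 CPM in injured inputs, against 115.8, 138 and 173 CPM in naive inputs (log2 fold change 1.61, adjusted p = 0.000909). Its relative Bhlhe41 (DEC2) had 161, 215 and 167 CPM in injured inputs, against 58.3, 57.8 and 74.0 CPM in naive inputs (1.47, adjusted p = 0.000862). Nfil3, the repressor at the D-box, had 26.9, 11.7 and 15.9 CPM in injured inputs, against 3.63, 4.22 and 8.43 CPM in naive inputs (1.67, adjusted p = 0.0279). Csnk1e, a kinase that phosphorylates PER proteins, had a log2 fold change of 1.30 (adjusted p = 0.00333). In each of these 4 genes all injured libraries were above all naive ones. They were named because they were called higher, and the share of all transcripts that separated so was not counted.

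Timeless, which acts in DNA replication in mammals, had 3.16, 5.57 and 3.90 CPM in injured inputs, against 43.9, 41.6 and 52.7 CPM in naive inputs (log2 fold change -3.47, adjusted p = 3.8e-05). No injured library came near the naive ones. Clock, the partner of BMAL1, had a log2 fold change of -0.38 (adjusted p = 0.274), and the repressors Cry1 and Cry2 had -0.45 (adjusted p = 0.55) and -0.25 (adjusted p = 0.624). Rora, an activator at the ROR element, had 0.16 (adjusted p = 0.643).

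Of the 10 clock-controlled genes 7 were tested, with 2 higher and 3 lower, beside the same 14.5% and 13.4% of all transcripts. The list's median log2 fold change was -1.27, beside 0.0017. Nampt, which makes a precursor of NAD, had a log2 fold change of 0.88 (adjusted p = 0.00876) and the deubiquitinase gene Usp2 one of 0.91 (adjusted p = 0.0229). The kinase gene Pdk4, which curbs pyruvate oxidation, had 45.6, 28.0 and 29.6 CPM in injured inputs, against 108.2, 102 and 108.2 CPM in naive inputs (log2 fold change -1.67, adjusted p = 0.000801). Its injured libraries stayed below all naive ones. Cdkn1a, the cell cycle inhibitor p21, had -1.27 (adjusted p = 0.0026), and Gne, an enzyme of sialic acid synthesis, had -1.61 (adjusted p = 0.0287). Genes of this list therefore moved in both directions.

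Glucocorticoid hormones follow the day and act on some clock genes, so a list of 12 responsive genes was counted too. Of the 10 tested in input, 4 were lower and 0 higher, where 13.4% of all transcripts were called lower and 14.5% higher. The median log2 fold change was -0.69, beside 0.0017 for all transcripts. Zbtb16, a zinc finger repressor, had 5.27, 4.32 and 7.66 CPM in injured inputs, against 104.1, 25.8 and 23.7 CPM in naive inputs (log2 fold change -3.13, adjusted p = 0.00114). Mt2, a metallothionein, had -1.31 (adjusted p = 0.00328), Ddit4, an inhibitor of mTORC1 signalling, had -1.27 (adjusted p = 0.0118) and the transcription factor gene Klf9 had -0.74 (adjusted p = 0.0174). Fkbp5 and Tsc22d3 are induced strongly by these hormones in many tissues. Fkbp5 had 1.21 to 2.37 CPM in injured inputs and 0.52 to 2.3 CPM in naive inputs (log2 fold change 0.02, adjusted p = 0.987), and Tsc22d3 had -2.11 (adjusted p = 0.0957).

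**Figure D3:**
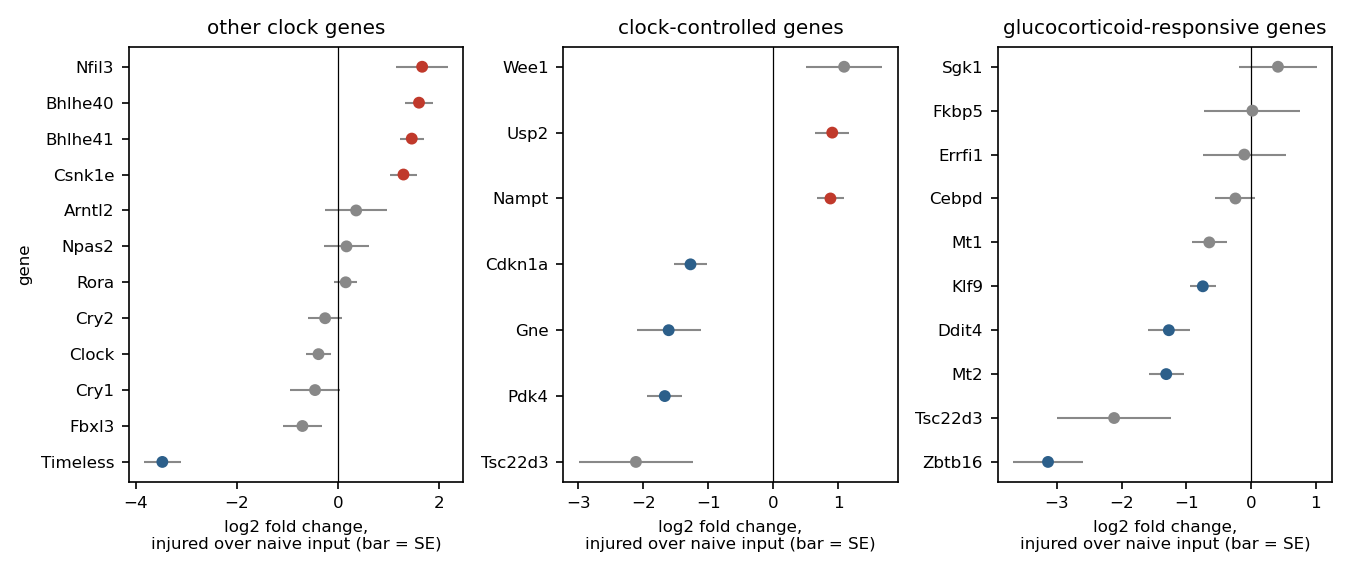
Log2 fold change (injured over naive input, bar = SE) of the tested genes of 3 lists. Red points passed an adjusted p of 0.05 as higher, blue points passed as lower and grey points did not pass. Nfil3, Bhlhe40, Bhlhe41 and Csnk1e lie above 0, and Timeless and Zbtb16 lie near or below -3.

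In RNA recovered with the nucleolin antibody Hlf and Nr1d1 were lower as well. These are other libraries than the inputs, and the labels do not say what the 2 kinds share. Of 10 clock transcripts tested, 2 were lower and 0 higher, while 0.431% of 11840 transcripts were called lower, 0.397% higher and 0.828% in either direction. An unadjusted p under 0.05 was reached by 2 of the 10 and by 12.4% of all transcripts, and the fold change was below 0 in 9 of the 10 and in 52.7% of all. Their median log2 fold change was -0.89, beside -0.083 for all transcripts. Hlf-201 had 6.02, 12.2 and 12.9 CPM in injured nucleolin IPs, against 228, 286 and 98.2 CPM in naive nucleolin IPs (log2 fold change -4.22, SE 0.68, adjusted p = 0.0242). Nr1d1-201 had 35.2, 17.03 and 27.9 CPM in injured nucleolin IPs, against 131, 105 and 124 CPM in naive nucleolin IPs (-2.10, SE 0.41, adjusted p = 0.0377). Both groups stood well apart for these transcripts. In the same libraries, Schwann cell markers summed to 2962 to 5770 CPM in injured nucleolin IPs and 13154 to 25422 CPM in naive nucleolin IPs (7 tested, 1 lower). Macrophage markers summed to 2578 to 8573 CPM in injured nucleolin IPs and 966 to 1516 CPM in naive nucleolin IPs (6 tested, 2 higher).

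Repeat numbers were taken to pair the libraries in this comparison, by the rule given with the processing. With the replicate block 334 transcripts were called in place of 98. The clock calls with the block were again Hlf-201 (adjusted p = 0.0142) and Nr1d1-201 (adjusted p = 0.0179). With 1 library fewer the calls were fragile. Hlf-201 stayed called without naive IP 3 and was not called without any of the other 5 (adjusted p 0.0254 to 0.159 over the 6). Nr1d1-201 was not called without any 1 of the 6 (0.0868 to 0.253).

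The other clock transcripts in the nucleolin IP did not pass. Dbp-201 had 3.11, 1.61 and 2.83 CPM in injured nucleolin IPs, against 19.8, 7.22 and 11.8 CPM in naive nucleolin IPs (log2 fold change -2.29, adjusted p = 0.496). Tef-203 had 42.3, 29.1 and 26.5 CPM in injured nucleolin IPs, against 218, 88.1 and 66.4 CPM in naive nucleolin IPs (-1.84, adjusted p = 0.427). For both, the injured libraries were all lower. With Nr1d2-201 (-0.72, adjusted p = 0.572), 5 of the 10 had all injured libraries below all naive ones, where 15.4% of all transcripts did. Tef-202 (0.09), Arntl-201 (-0.07), Per2-201 (-0.50), Per3-201 (-1.06) and Tef-207 (-0.18) overlapped between the groups.

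In the peptide-blocked nucleolin IP Nr1d1 was lower too. Nr1d1-201 had 47.6, 32.1 and 32.3 CPM in injured blocked IPs, against 111, 154 and 162 CPM in naive blocked IPs (log2 fold change -1.92, SE 0.41, adjusted p = 0.0402). The column of naive blocked 3 carries another abbreviation than its sample's label and was matched by condition, protein and number. Without it the adjusted p was 0.054. In the same libraries Schwann cell markers summed to 2084 to 6650 CPM in injured blocked IPs and 13092 to 28287 CPM in naive blocked IPs (7 tested, 1 lower). Adipocyte markers summed to 1796 to 7993 CPM in injured blocked IPs and 9249 to 40387 CPM in naive blocked IPs (6 tested, 1 lower). Macrophage markers summed to 2750 to 7840 CPM in injured blocked IPs and 1334 to 2159 CPM in naive blocked IPs (6 tested, 1 higher), and the part of these shifts in the Nr1d1 value was not tested. Nr1d1-201 was the 1 clock transcript of 10 called lower, with 0 higher, while 0.819% of all transcripts were called lower, 0.735% higher and 1.55% in either direction. All injured libraries lay below all naive ones in 4 of the 10, and in 11.8% of all transcripts. An unadjusted p under 0.05 was reached by 3 of the 10 and by 20.1% of all, and the fold change was below 0 in 7 of the 10 and in 51.2% of all. Over all transcripts 87 were higher and 97 lower, or 108 and 68 with library totals alone. Nr1d1-201 stayed called only without naive blocked 1 among the 6 fits that left out a library (adjusted p 0.0437 to 0.14). It was not called when only the 6 libraries compared were fitted, a fit that called 0 transcripts in all.

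Dbp-201 had 0, 0.242 and 1.21 CPM in injured nucleolin blocked IPs, against 21.2, 37.6 and 11.5 CPM in naive nucleolin blocked IPs. Its log2 fold change of -5.57 had an adjusted p of 0.0722, and 0.0472 without injured blocked 3. Hlf-201 had 66.9, 37.0 and 11.1 CPM in injured nucleolin blocked IPs, against 172, 115 and 93.8 CPM in naive nucleolin blocked IPs (-1.69, adjusted p = 0.158). In both transcripts the injured libraries were all below the naive ones. Of the further lists (11, 5 and 9 genes tested), Bhlhe41 was higher in this comparison (log2 fold change 1.82, adjusted p = 0.0419) and Klf9 lower (-2.20, adjusted p = 0.0344). In the nucleolin IP and in both PTBP1 comparisons of injury, edgeR called 0 genes of these lists.

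**Figure D4:**
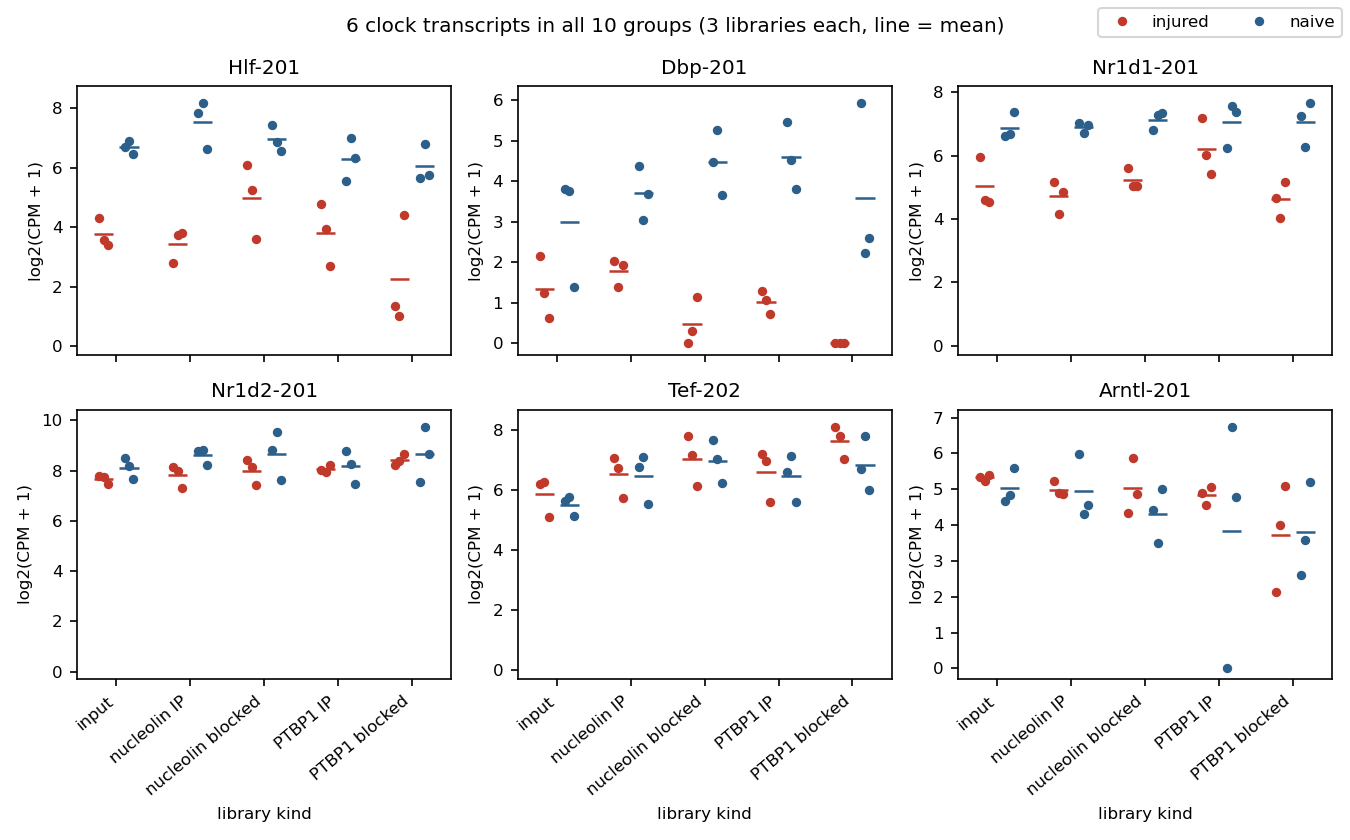
Level of 6 clock transcripts, as log2(CPM + 1), in every library of the 10 groups, injured to the left of naive and each IP to the left of its blocked IP, with a line at the mean of 3. Hlf-201 and Dbp-201 are lower in injured nerve in each library kind, with overlap only for Dbp-201 in input, while Tef-202 and Arntl-201 overlap in each kind.

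With either antibody, edgeR called 0 clock transcripts between the IP and its blocked control. For nucleolin in injured nerve, edgeR called 0 of 11840 transcripts (0%), with 769 (6.49%) at an unadjusted p under 0.05, 1 clock transcript among them, and 314 by DESeq2. In naive nerve it called 0 as well (0%), with 1422 (12%) at an unadjusted p under 0.05, 0 clock transcripts among them, and 761 by DESeq2. All IPs lay above all blocked IPs for 1 of 10 clock transcripts in injured nerve (Dbp-201) and 1 in naive nerve (Tef-203), and for 11.8% and 12.9% of all transcripts. Hlf-201 was the clock transcript below an unadjusted 0.05 in injured nerve. Its 6.02, 12.2 and 12.9 CPM in injured IPs stood against 66.9, 37.0 and 11.1 CPM in injured blocked IPs (log2 fold change of IP over blocked -1.89, adjusted p = 0.373 in edgeR). In naive nerve it had 228, 286 and 98.2 CPM in IPs against 172, 115 and 93.8 CPM in blocked IPs (0.64, adjusted p = 0.722). Both pairs of groups overlap.

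The change of that ratio with injury was -2.53 for Hlf-201 (SE 0.86, edgeR adjusted p = 1). Of 11840 transcripts, edgeR called 0 (0%) in that interaction test, with 302 (2.55%) at an unadjusted p under 0.05, of which 1 was this clock transcript, and 20 by DESeq2. For Nr1d1-201 the change was -0.18 (SE 0.56), and for Tef-202 -0.05 (SE 0.78). The noncoding form Tef-209 was listed only in naive nucleolin libraries and in the PTBP1 table. It had 62, 70 and 10 counts in naive nucleolin IPs and 0 in the 3 blocked IPs. It is in that table only because its IP libraries passed the filter on low counts, so this difference supports nothing, and the fit of those 6 libraries alone did not call it (edgeR adjusted p = 0.1177).

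With the PTBP1 antibody edgeR called 0 of the 13 clock transcripts tested in each comparison, while DESeq2 called some in 4 of them. For injury in the PTBP1 IP edgeR called 0 of 14540 transcripts lower (0%) and 1 in either direction (0.00688%), with 1499 (10.3%) at an unadjusted p under 0.05, 2 clock transcripts among them, and 680 by DESeq2. For injury in the blocked IP it called 4 (0.0275%, of which 0.0206% higher and 0.00688% lower), with 3150 (21.7%) at an unadjusted p under 0.05, 6 clock transcripts among them, and 2497 by DESeq2. DESeq2 called 1 of the 13 clock transcripts in the IP and 6 in the blocked IP, beside these 680 and 2497 of all 14540. The single call is therefore not read as a result about clock genes. The fold change was below 0 in 10 of 13 clock transcripts in the IP and in 53.3% of all, and in 11 of 13 in the blocked IP and in 50.1% of all. The fold changes of Hlf and Dbp were negative here too. Hlf-201 had 26.3, 14.2 and 5.45 CPM in injured PTBP1 IPs, against 46.1, 127 and 79.5 CPM in naive PTBP1 IPs (log2 fold change -2.67, adjusted p = 0.4595). Dbp-201 had 1.43, 1.09 and 0.644 CPM in injured PTBP1 IPs, against 43.0, 21.8 and 12.9 CPM in naive PTBP1 IPs (-4.75, adjusted p = 0.35). For both, no injured library reached a naive one. These were the 2 clock transcripts of 13 with all injured libraries lower, where 13.4% of all transcripts were so.

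In the PTBP1 blocked IP, Hlf-201 had 1.57, 1.02 and 20.3 CPM in injured libraries, against 49.9, 109 and 52.8 CPM in naive libraries (log2 fold change -3.24, adjusted p = 0.158). Dbp-201 had 0 counts in the 3 injured PTBP1 blocked libraries, against 60.0, 3.66 and 5.03 CPM in naive blocked libraries. That is at least 301-fold lower, with 3 counts over the injured group as the floor (adjusted p = 0.0904). Naive blocked 1 held 1030 of the counts and the others 61 and 116, so the size rests on that library. Nr1d1-201 had 24.6, 15.5 and 34.7 CPM in injured blocked libraries, against 153, 76.2 and 202 CPM in naive blocked libraries (-2.61, adjusted p = 0.123). All injured libraries of these 3 transcripts, and of the Dbp transcript ENSMUST00000123587, lay below all naive ones, as for 10.6% of all transcripts. That Dbp transcript is in the PTBP1 table only because naive libraries passed the filter on low counts, so its difference supports nothing. DESeq2 called 6 clock transcripts in this comparison, 5 lower and 1 higher, and 1 lower (Dbp-201, adjusted p = 0.00858) in the PTBP1 IP, where edgeR called 0. The 5 lower include the Dbp transcript ENSMUST00000123587. The DESeq2 calls over all transcripts are given above for both comparisons. The 1 called higher was the retained-intron form Tef-207 (DESeq2 adjusted p = 0.00254), with 0, 50 and 93 counts in injured blocked libraries against 1, 0 and 0 counts in naive blocked libraries. Its groups overlap at the 0 of injured blocked 1.

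PTBP1 IP over its blocked IP gave 0 calls of 14540 in injured nerve (0%), with 1815 (12.5%) at an unadjusted p under 0.05, 4 clock transcripts among them, and 902 by DESeq2. In naive nerve edgeR gave 0 (0%), with 1893 (13%) at an unadjusted p under 0.05, 1 clock transcript among them, and 1099 by DESeq2. All IPs lay above all blocked IPs for 3 of 13 clock transcripts in injured nerve and 1 in naive nerve, and for 17.3% and 9.65% of all transcripts. Dbp-201 had 12, 9 and 15 counts in injured IPs and 0 in the injured blocked IPs, at least 12.8-fold higher in the IPs, with 3 counts over the blocked group as the floor (adjusted p = 0.217 in edgeR and 0.00801 in DESeq2). Per3-205 had 20, 10 and 18 counts in injured IPs and 0 in the injured blocked IPs (edgeR adjusted p = 0.32), and it is in the PTBP1 table only because the injured IPs passed the filter on low counts. Both are scarce transcripts. In naive nerve DESeq2 called Tef-207 higher in the IPs (adjusted p = 0.0175), with 39, 13 and 9 counts in IPs and 1, 0 and 0 counts in blocked IPs. Tef-207 is also the 1 clock transcript counted above with all naive IPs higher. It is in the PTBP1 table only because IP libraries passed the filter on low counts, so its difference supports nothing. DESeq2 thus called 1 of 13 clock transcripts in each condition, beside 902 and 1099 of all 14540. These single calls are not read as results about clock genes. Nr1d1-201 had 145, 64.2 and 42.3 CPM in injured IPs against 24.6, 15.5 and 34.7 CPM in injured blocked IPs (log2 fold change 1.57, adjusted p = 0.397), and in naive nerve the ratio was -0.07 (adjusted p = 0.993). The change of the PTBP1 ratio with injury passed for 0 of 14540 transcripts (0%), with 1147 (7.89%) at an unadjusted p under 0.05, 3 clock transcripts among them, and 420 by DESeq2.

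**Figure D5:**
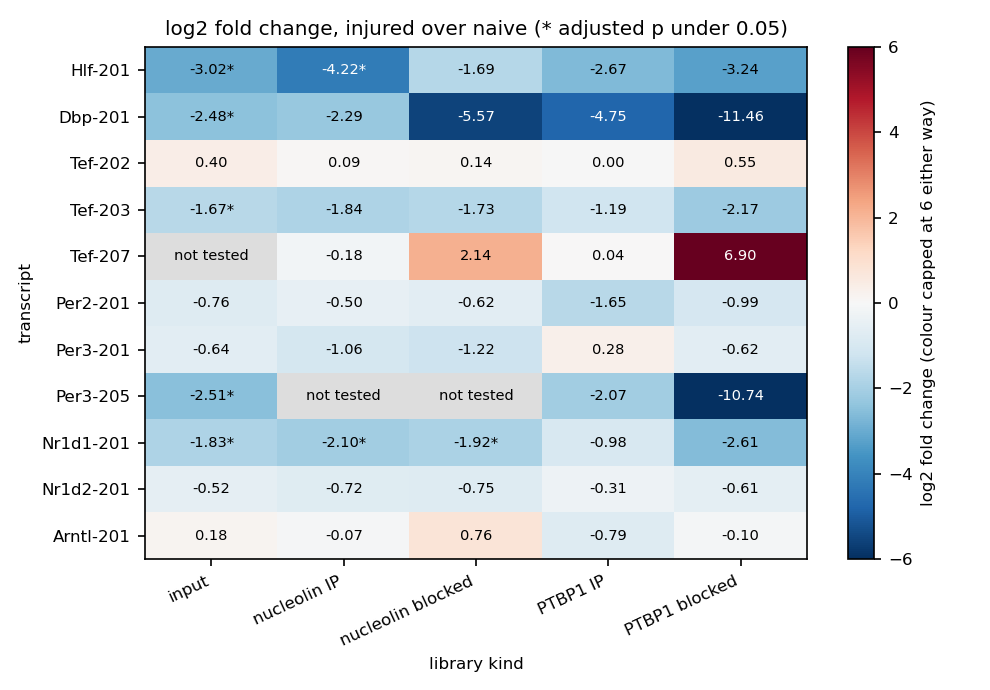
Log2 fold change (injured over naive) of 11 clock transcripts in 5 library kinds, where a star marks an adjusted p under 0.05 and grey cells were not tested. Hlf-201, Dbp-201, Tef-203 and Nr1d1-201 are negative in all 5 kinds, and the values of -11.46 and -10.74 come from groups at 0 and depend on the prior count.

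Across the library kinds, some transcripts kept 1 sign. Hlf-201, Dbp-201, Tef-203, Nr1d1-201, Nr1d2-201 and Per2-201 had negative log2 fold changes in all 5 kinds. The kinds share no library. Between IP and blocked IP, however, 5 or 6 of 6 libraries deviated most like the one with their own number. The 5 kinds are therefore not read as independent observations, and how many of all transcripts kept 1 sign was not counted. Uncalled values turned positive for Nr1d2-201 (0.12) and Per2-201 (1.14) without naive PTBP1 blocked 2, for Nr1d2-201 (0.059) without naive PTBP1 IP 1, and for Tef-203 (0.18) without naive PTBP1 IP 3. Tef-202 ran from -0.0040 to 0.55 and Arntl-201 from -0.79 to 0.76. Whether the fall of a transcript differs between input and an IP was not tested. Over the 10 group means of log2(CPM + 1), Dbp-201 and Nr1d1-201 correlated at r = 0.87 and Hlf-201 and Nr1d1-201 at r = 0.86. Arntl-201 and Nr1d2-201 had r = -0.64, and Arntl-201 and Nr1d1-201 r = 0.0038. These groups share the injury contrast and the scaling, so the values only describe likeness.

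Among the 8525 transcripts compared, those most like Hlf-201 over the 10 group means were of Tmem18 (r = 0.98), Shisa3 (0.96) and Krt19 (0.96). For Dbp-201 they were of Col9a2 (0.97), Dnal4 (0.97) and Ctdspl (0.96), and for Nr1d1-201 of Pkd2 (0.97), Ecm2 (0.97) and Pgrmc2 (0.97). For Arntl-201 they were of Trmt10c (0.93), Fam3c (0.92) and A330023F24Rik (0.91).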

How the data were processed

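The values used were whole-number counts per Ensembl transcript that the authors deposited in 6 tables. CASAVA 1.8.2, edgeR and the builds mm10 and GRCm38 are named in the submitters' processing notes. The sources used here name no aligner, counting tool, use of strand or annotation release. The deposited tables were already filtered, in most to transcripts with at least 5 counts in all 3 libraries of a group, so library totals are not full depth. The smaller PTBP1 tables were not used in tests; for the 10954 naive and 8833 of 8932 injured transcripts they share with the 12-library table, the counts were the same. A further 114 columns of per-sample values were not used. Coordinates and classes came from GENCODE M21 (GRCm38), which held 97.8% of the identifiers.

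Tests used edgeR 4.0.16 in R 4.3.3: quasi-likelihood, TMM scaling, filterByExpr, Benjamini-Hochberg adjustment over all transcripts tested, two-sided, threshold 0.05. The 6 inputs formed 1 fit, the 12 nucleolin libraries another (11862 transcripts shared by its tables) and the 12 PTBP1 libraries another (15041). Standard errors were taken from the fold change and the F statistic. Alternatives were other scalings, no filter, a replicate block, DESeq2 1.42.0, gene sums, smaller fits and each library left out. Counts limit precision, and counts of 0 were read against a floor of 3 counts.

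The rule for named genes took all listed transcripts of the 9 genes, and, in the further lists, up to 6 genes per list and comparison past the threshold, by size. Cry1, Cry2, Clock, Rora, Fkbp5, Tsc22d3, Thra and Sphk2 were named after their values were seen. Members and lists were chosen with earlier results of these data known. Repeat numbers were taken to pair libraries where same-numbered libraries deviated together with every correlation over 0.1. That held for injury in the nucleolin IP (0.338, 0.121 and 0.561) and for PTBP1 IP over blocked IP in injured nerve (0.103, 0.136 and 0.293). In every comparison of 2 groups, also those that missed this rule, 5 or 6 of the 6 libraries deviated most like the one with their own number. The main fits hold no replicate block. The labels do not say that a number marks a shared day.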

Additional observations from a re-analysis of the deposited data

How the results depend on the processing

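None of the calls of Hlf, Dbp, Tef-203, Per3-205 and Nr1d1 reversed its sign under the alternatives run. Some uncalled values did, among them those of Nr1d2-201, Per2-201 and Tef-203 in PTBP1 libraries with 1 library left out. Over the alternatives, Per3-205 in the PTBP1 IP ran from -2.64 to 0.86 for injured over naive. Arntl-201 ran from -1.31 to 0.89 there, and Per3-201 in the PTBP1 blocked IP from -1.075 to 0.76. In input, library totals alone gave 2327 calls in place of 3924; clock calls stayed at 5, and gene sums called Hlf, Dbp, Per3 and Nr1d1 but not Tef. In the nucleolin IP, DESeq2 called 734 transcripts and the fit of 6 libraries 495, in place of 98. In the nucleolin blocked IP, DESeq2 called 1612 and the fit of 6 libraries 0, in place of 184, with 2 and 0 clock transcripts in place of 1. In the PTBP1 IP, DESeq2 called 680, gene sums 4 and the fit of 6 libraries 12, in place of 1, and in its blocked IP DESeq2 called 2497 and the fit of 6 libraries 0, in place of 4. DESeq2 called 1 clock transcript in the PTBP1 IP, 6 in its blocked IP, and 1 each in PTBP1 IP over blocked IP in injured and naive nerve, in place of 0. For IP over blocked IP, where edgeR called 0, DESeq2 called 314 and 761 (nucleolin, injured and naive) and 902 and 1099 (PTBP1), and 20 and 420 for the changes with injury; in naive nucleolin, library totals gave 39 and gene sums 24. The cause of these differences was not tested.

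The replicate block changed no count of clock calls. It gave 4352 calls in input, 334 in the nucleolin IP, 475 in the nucleolin blocked IP, 6 in the PTBP1 IP, 43 in the PTBP1 blocked IP and 0 in the remaining comparisons.

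Leaving out 1 library gave 2514 to 3821 calls in input (4 to 6 clock transcripts), 2 to 27 in the nucleolin IP (0 to 1), 13 to 419 in its blocked IP (0 to 1), 0 to 5 in the PTBP1 IP and 0 to 21 in its blocked IP. For IP over blocked IP it gave 0 to 15 and 0 to 320 (nucleolin, injured and naive) and 0 to 4 and 0 (PTBP1), and for the changes with injury 0 to 5 and 0.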

Other observations

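For some clock transcripts, the library numbered 3 was the lowest of its group in at least 7 of the 10 groups. Tef-202, whose level did not pass the test for injury, was lowest in library 3 in 10 of 10 groups. Of 8593 transcripts compared, 27 (0.314%) were lowest in library 3 that often. Per3-201 was lowest there in 8 groups, which 3.56% of transcripts matched or exceeded. Per2-201 and Nr1d2-201 were lowest there in 7 groups, which 7.55% matched or exceeded. For the others this was more common: Hlf-201 in 6 groups (14.5%), Dbp-201 in 5 (24.5%), Tef-203 and Tef-207 in 4 (38.4%) and Nr1d1-201 in 2 (73.4%). Arntl-201 was lowest in library 3 in 1 group (89.9%) and highest there in 6, and Nr1d1-201 was highest there in 4. Repeats of 1 group have no order, and the labels do not say what a number shares between groups. The pattern was noticed in the data and was not tested.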
